A study of Rattus norvegicus with 2 samples.

Results

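The genes of the voltage-gated, inward rectifier and calcium- or sodium-activated potassium channels, with their auxiliary subunits, were followed in neural stem cells of the rat hippocampus exposed to sevoflurane, an inhaled general anaesthetic. The members were all non-control probes, present on both arrays, whose RefSeq messenger RNA accession belongs to a rat gene with a symbol starting with Kcn, other than the Kcnk genes of leak channels. This rule uses names only and gave 75 probes for 71 genes, out of 24684 probes and 13888 named genes on the array. A further 10 Kcn genes of the gene table, among them Kcnq5, Kcnc4 and Kcnip1, had no probe matched through an accession and were not analysed here. One array held RNA of cells under 2.4% sevoflurane and the other RNA of cells under 0% sevoflurane, the control. In both groups the cells came from the hippocampus of Sprague-Dawley rats of postnatal day 3, grew without serum and with the growth factor bFGF to the third passage, spent 6 h under the gas and then 24 h in an ordinary incubator with 5% CO2. Some labels name only the 6 h, so the time of harvest is not certain, and the sources used here do not say whether an array stands for 1 culture or a pool.

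Potassium channels let potassium leave the cell and so pull the membrane towards its resting potential. Voltage-gated (Kv) channels open on depolarisation and end action potentials, inward rectifiers (Kir) hold the resting potential and include channels opened by G proteins (GIRK) or closed by ATP (KATP), and calcium-activated channels couple the membrane to calcium signals. In the hippocampus most Kv genes are known from neurons, Kir4.1 from glia and the vascular KATP channel from pericytes, and dividing neural precursors are known to carry both Kv and Kir currents.

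The values were spot intensities from the scanner, after background correction by the scanner software, and the comparison asks which channel messenger RNAs differ after the anaesthetic. Signals are given as scanned, with the software's own error for the spot (±), which covers that spot and not the spread between cultures. Differences are log2 values, sevoflurane minus control, after each array was divided by its upper quartile of probes, 363 for sevoflurane and 692 for control. A gene with equal raw signals therefore has a difference of 0.93. A gene was called measured where its spot was well above background on both arrays, and called higher or lower where it differed by at least 2-fold (1 log2 unit). Each group is a single array, so no difference has a replicate check or a p-value, and the number of arrays limits the precision. Probes with several spots had a median SD between spots of 0.11 (sevoflurane) and 0.07 (control) log2 units. The scan days differ and coincide with the groups, and their effects cannot be told apart. The dim ends of the arrays differed as well, with a lower quartile of 16.4 (sevoflurane) against 3.97 (control). Of the marker genes for neural stem and progenitor cells, 11 of 11 with a probe were well above background on both arrays, among them Nes with 777 (sevoflurane) and 616 (control) and Sox2 with 1993 (sevoflurane) and 6835 (control). The cultures also held neuronal RNA, with Tubb3 at 11745 (sevoflurane) and 37910.2 (control), and red cell RNA, with Hbb at 41993 (sevoflurane) and 16170.0 (control).

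Of the 71 channel genes, 42 were measured on both arrays (59.2%, against 72.3% of all genes with usable spots). A further 18 were well above background on the sevoflurane array only (25.4%, against 15.4%), 2 on the control array only (2.82%, against 1.44%) and 9 on neither (12.7%, against 10.8%). Among the 42 measured genes 15 were higher and 12 lower, that is 35.7% higher against a background of 27.9% of all 10028 measured genes, and 28.6% lower against a background of 11.5%. The median difference was -0.21, against 0.25 over all measured genes. In bulk samples such as these, fewer cells of a type and less RNA per cell cannot be told apart. The split between higher and lower depended on the scaling. After an intensity-dependent correction, which removes the trend of difference with level, 5 of 42 were higher (11.9%, background 15.0%) and 17 were lower (40.5%, background 15.5%), and the median was -0.64 against 0.00 over all measured genes. Median scaling gave 8 higher (background 10.4%) and 22 lower (background 43.7%), quantile normalization gave 5 higher (background 13.6%) and 20 lower (background 19.6%), and the normexp background correction gave 13 higher (background 22.7%) and 6 lower (background 8.59%). In the authors' deposited table, higher genes numbered 5 (background 13.6%) and lower genes 20 (background 19.2%). With no filter on dim spots, 40 of 71 genes were higher (background 45.9%) and 13 were lower (background 8.9%). Quantile normalization and the deposited table gave near-equal values for most measured members, so they are not separate checks. Under all 6 scalings 5 members were higher (11.9%, background 7.69%) and 6 were lower (14.3%, background 7.07%). Among the higher ones were Kcnma1, Kcnt2, Kcnv1 and Kcna5, and among the lower ones Kcnn2, Kcnh2, Kcnc1, Kcng1 and Kcnd3.

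**Figure D1:**
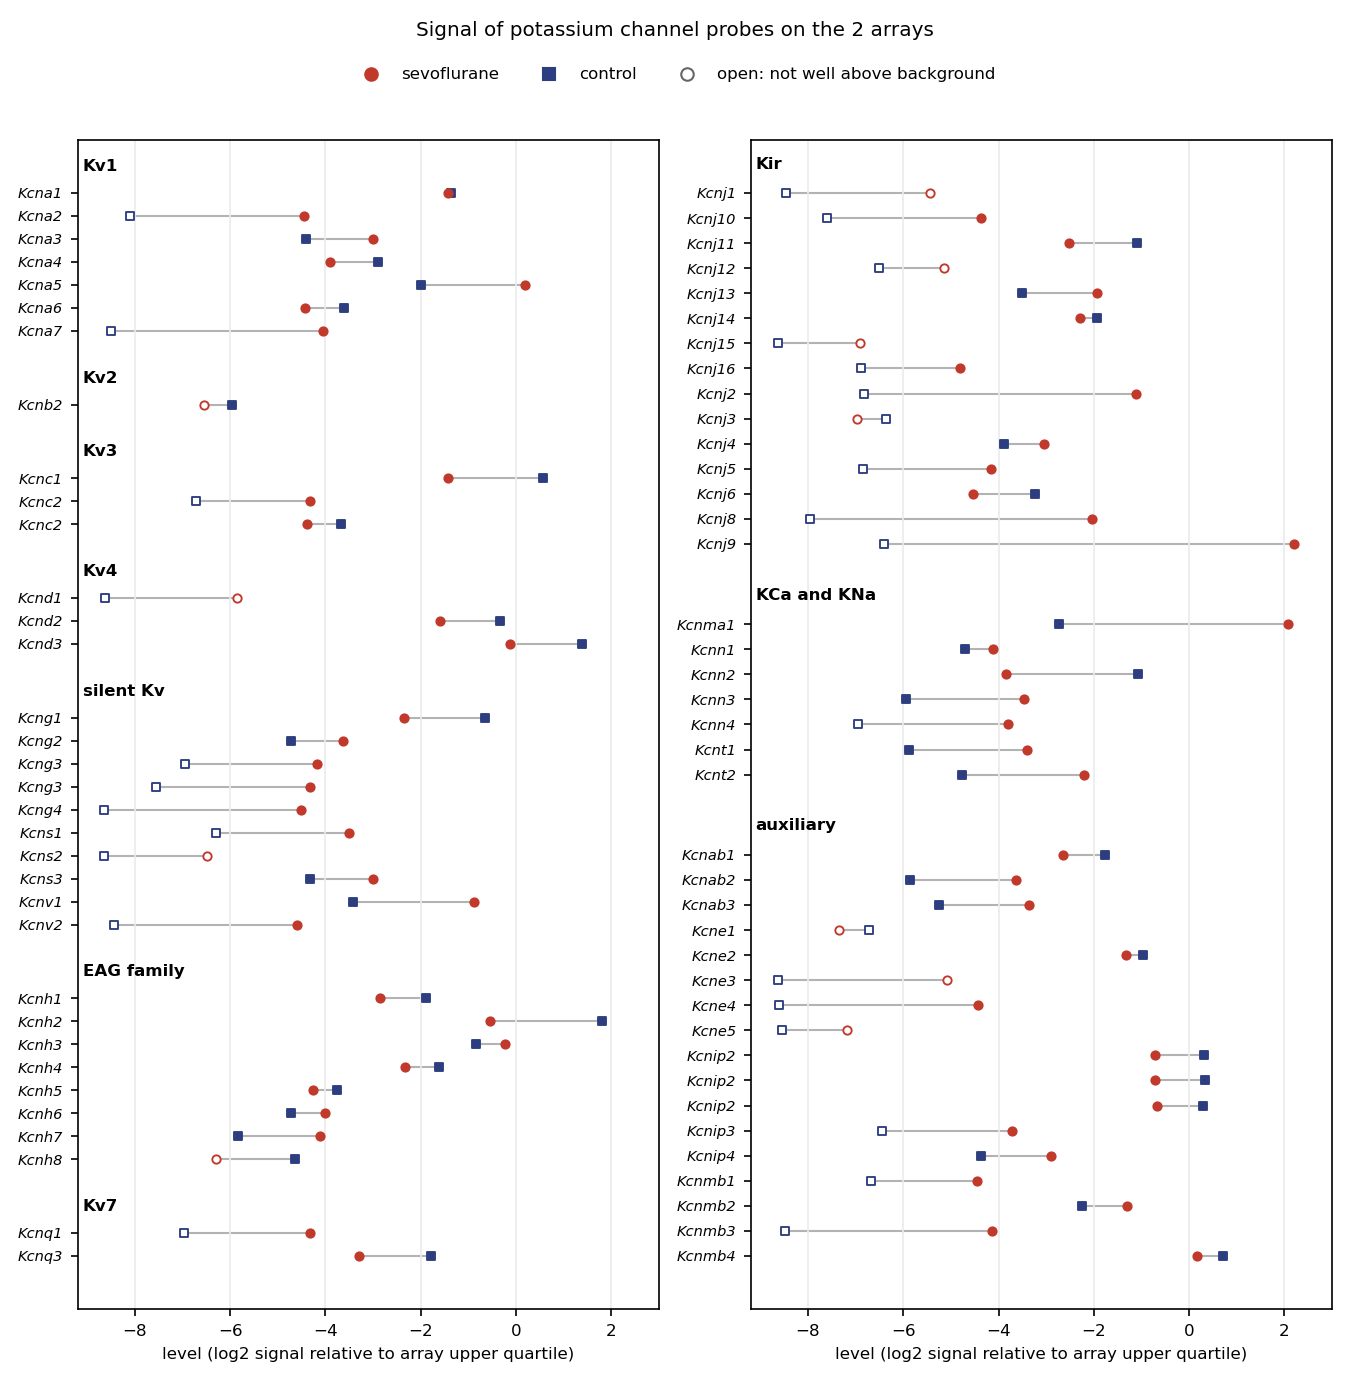
Level of channel probes on the sevoflurane array (circles) and the control array (squares), as log2 of the signal relative to that array's upper quartile, by family. Open symbols are spots not well above background. Kcnj9 has the longest line, with an open control square on its left, and the sevoflurane circles of Kcnh2, Kcnc1, Kcnd3 and Kcnn2 lie to the left of their control squares.

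The measured genes of the array were divided by mean signal into 3 tiers of equal size. The brightest tier held 0 channel genes. In the middle tier 8 of 16 channel genes were lower, against 15.3% of all genes of that tier, and 2 were higher (12.5%, against 19.2%). Their median was -0.88, against 0.03 for the tier. In the dimmest tier 13 of 26 were higher, against 55.8% of all its genes, and 4 were lower (15.4%, against 6.55%). After the intensity-dependent correction 3 of these 26 were higher (11.5%, against 18.5%) and 9 were lower (34.6%, against 20.6%). The share of higher calls among dim channel genes was thus no larger than among dim genes in general.

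**Figure D2:**
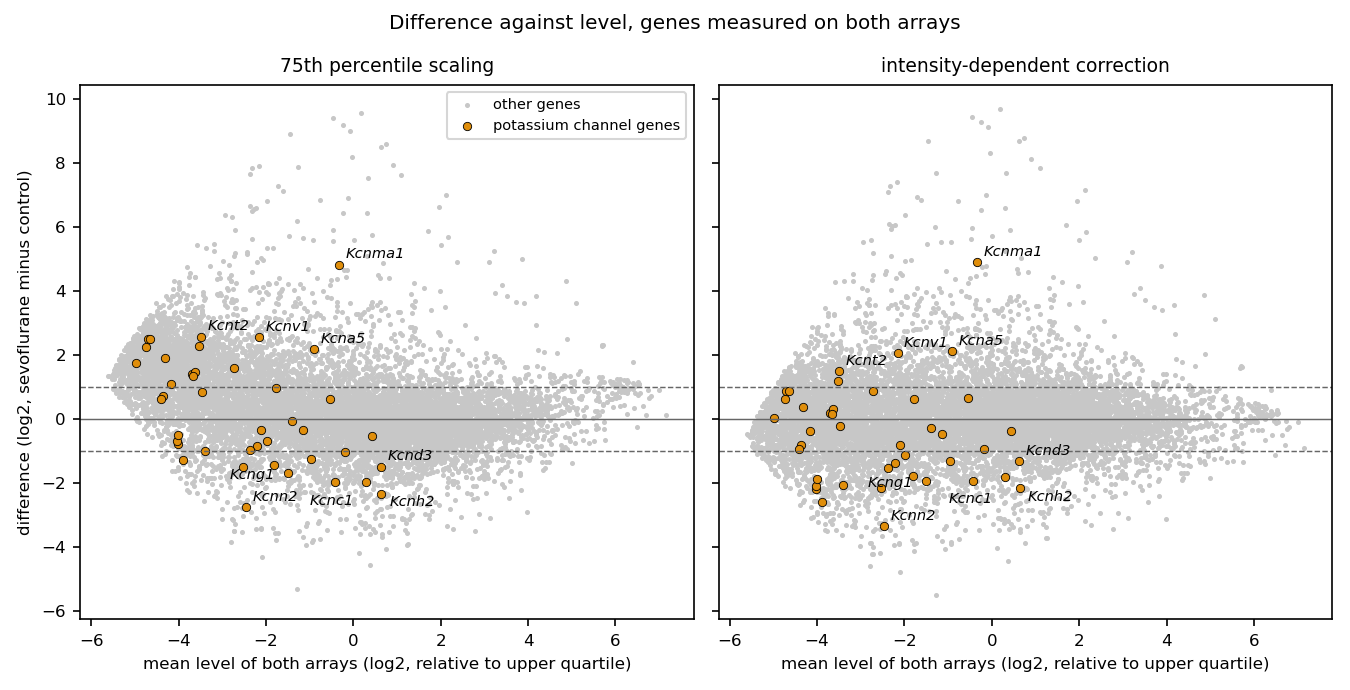
Difference (log2, sevoflurane minus control) against mean level for 10028 genes measured on both arrays, with the 42 channel genes marked, under upper quartile scaling (left) and after the intensity-dependent correction (right). Dashed lines mark 2-fold. The named genes stay outside the dashed lines in both panels, while dim channel genes at the left lie lower in the right panel.

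The calcium- and sodium-activated channels held the largest measured difference of all 42 genes. Kcnma1, which encodes the pore of the large-conductance BK channel, opened by depolarisation and calcium together, had a signal of 1531 ± 153 (sevoflurane) and 104 ± 10.5 (control). Its level was higher by 4.81, a 28.1-fold difference, and it lay between 3.73 and 4.89 under the 6 scalings. Kcnn2, a small-conductance SK channel opened by calcium through calmodulin, went the other way, at 25.4 ± 3.46 (sevoflurane) and 328 ± 32.9 (control). It was lower by 6.79-fold (-2.76, and between -3.87 and -1.43 under the scalings). Kcnma1 and Kcnn2 thus lay at opposite ends of the measured channel genes.

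Kcnt2, one of the sodium-activated channels, had 78.6 ± 8.21 (sevoflurane) and 25.4 ± 3.13 (control), a difference of 2.56. Kcnt1, its close relative, had 34.3 ± 4.17 (sevoflurane) and 11.7 ± 2.16 (control), a difference of 2.48, and 0.69 in the least favourable scaling. Kcnn3, another SK gene, stood at 33.0 ± 4.07 (sevoflurane) and 11.2 ± 2.11 (control), or 2.49, and at 0.65 in the least favourable scaling. Kcnn1 was within 2-fold (0.60), at 21.0 (sevoflurane) and 26.4 (control), but it was positive under only 2 of the 6 scalings and as low as -1.33. Kcnn4, the intermediate-conductance channel known from red cells and microglia, was well above background on the sevoflurane array only, at 25.8 in sevoflurane against 5.63 in control. It was at least 6.82-fold higher under upper quartile scaling, but its difference was 0.81 by quantile normalization, inside 2-fold. In all, 4 of 6 measured genes of the family were higher (background 27.9%) and 1 was lower (background 11.5%). After the intensity-dependent correction 2 were higher (background 15.0%) and 1 lower (background 15.5%), and by quantile normalization 2 were higher (background 13.6%) and 2 lower (background 19.6%). The BK beta subunit genes that were measured were within 2-fold, apart from Kcnmb4 at -1.64 by median scaling. The BK gamma subunit gene Lrrc26 is given with the channel partners below. Kcnmb4, the main beta subunit of neurons, had 405 ± 40.5 (sevoflurane) and 1129.6 ± 113 (control), a difference of -0.55. Kcnmb2, whose protein inactivates BK channels, had 147 (sevoflurane) and 146 (control), a difference of 0.95. The smooth muscle subunit gene Kcnmb1 (16.6 in sevoflurane against 6.73 in control) and Kcnmb3 (20.7 in sevoflurane against 1.93 in control) were above background on the sevoflurane array only.

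Among inward rectifiers, 3 genes were bright on the sevoflurane array and not well above background on the control array. A bound is given for such genes: the bright level against the higher of the dim spot's own level and the lowest level called well above background on that array. The bound holds under upper quartile scaling only, and other scalings can give less. All 2131 genes of this kind on the array had a bound of at least 2-fold (100% of them), so passing it says nothing, and its size alone is given here. Kcnj9, a GIRK subunit opened by G proteins in neurons, had 1681 ± 168 (sevoflurane) and 8.20 ± 1.90 (control). It was at least 391-fold higher by the bound, and its difference was 5.52 under normexp, the lowest of the scalings. Kcnj2, which encodes a strong rectifier that sets the resting potential in many cell types, had 169 ± 17.0 (sevoflurane) and 6.14 ± 1.89 (control). Its bound was at least 44.5-fold higher, and its lowest difference was 2.72, under normexp. Kcnj8, the pore of the vascular KATP channel, had 88.7 ± 9.14 (sevoflurane) and 2.79 ± 1.94 (control). Its bound was at least 23.4-fold higher, and its lowest difference was 2.21, under normexp. Of 6 measured pericyte and mesenchymal markers, 2 were higher (background 27.9%) and 0 lower (background 11.5%). The higher ones were Rgs5 (3.38), with 52.1 (sevoflurane) and 9.56 (control), and Pdgfrb (1.40), with 912 (sevoflurane) and 660.1 (control). Their part in the Kcnj8 level was not tested. In the authors' deposited value table Kcnj9 stood at 11.22 (sevoflurane) and 3.74 (control), Kcnj2 at 7.73 (sevoflurane) and 3.43 (control), and Kcnj8 at 6.59 (sevoflurane) and 2.73 (control), the last being the lowest value of the control column. Each of the 3 genes has 1 probe with 1 spot on each array.

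Kcnj11, the pore of the neuronal KATP channel, had 62.9 ± 6.76 (sevoflurane) and 325 ± 32.5 (control), lower by 2.71-fold (-1.44, and between -2.52 and -0.80 under the scalings). Kcnj6, a GIRK subunit that pairs with the Kcnj3 and Kcnj9 products, had 15.6 ± 2.83 (sevoflurane) and 73.0 ± 7.54 (control), a difference of -1.29, but 0.17 under normexp. Kcnj3 itself was above background on neither array, at 2.90 (sevoflurane) and 8.40 (control). Kcnj9 and Kcnj6, both GIRK subunits, thus lay on opposite sides under the scaling used. Kcnj5, the cardiac GIRK subunit, was at 20.3 (sevoflurane) and 6.02 (control), above background on the sevoflurane array only. Kcnj10, the Kir4.1 gene of glia, was at 17.6 (sevoflurane) and 3.58 (control) and its partner Kcnj16 at 12.9 (sevoflurane) and 5.81 (control), both of the same kind. Kcnj13, known from choroid plexus and retinal pigment epithelium, had 94.7 ± 9.74 (sevoflurane) and 60.4 ± 6.36 (control), higher by 1.58 but by 0.49 in the least favourable scaling. Kcnj14 (-0.35) and Kcnj4 (0.84) were within 2-fold, and Kcnj1, Kcnj12 and Kcnj15 were above background on neither array. Kcnj14 was as low as -1.44, and Kcnj4 as low as -0.32, under other scalings. Of the 15 Kir genes, 5 were measured, with 1 higher (background 27.9%) and 2 lower (background 11.5%), and with 0 higher (background 15.0%) and 2 lower (background 15.5%) after the intensity-dependent correction.

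**Figure D3:**
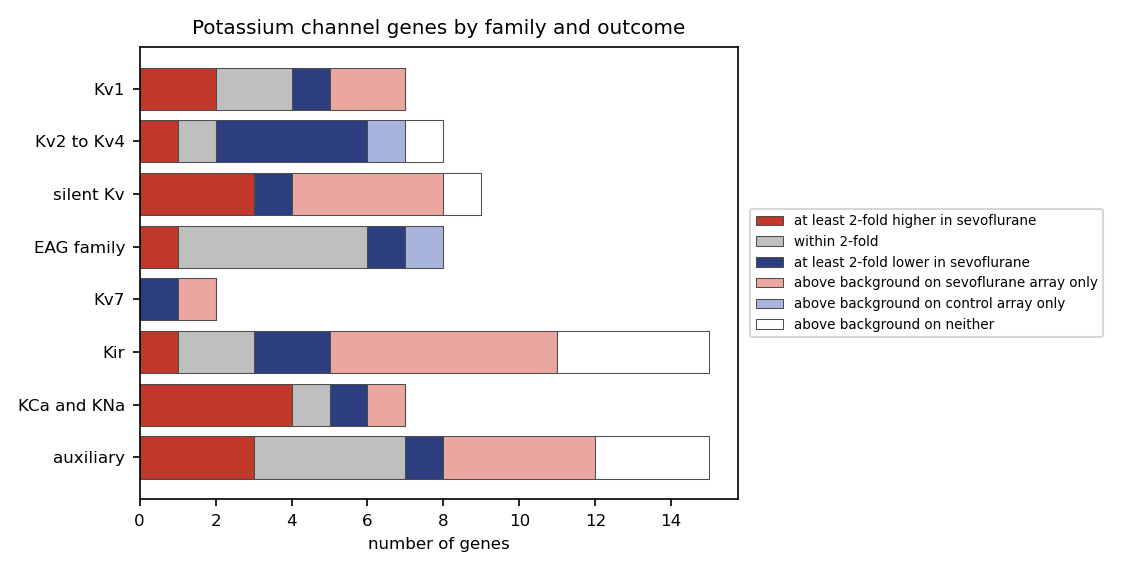
Number of channel genes by family that were at least 2-fold higher, within 2-fold, or at least 2-fold lower in the sevoflurane sample, or were well above background on only 1 array or on neither. Kv2 to Kv4 are drawn together. Kir has the most genes (6) seen above background on the sevoflurane array only.

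Kcnc1, a Kv3 channel that lets neurons fire fast, had 135 ± 13.7 (sevoflurane) and 1027 ± 103 (control), lower by 3.98-fold (-1.99). Both A-type Kv4 genes that were measured were lower. Kcnd3 had 334 ± 33.4 (sevoflurane) and 1802 ± 180.3 (control), a difference of -1.50, and Kcnd2 had 120.0 ± 12.3 (sevoflurane) and 549.5 ± 55.0 (control), a difference of -1.26. Kcnd2 stood at -0.93 under normexp, inside 2-fold, and Kcnd1 was above background on neither array. Kcnb2, a delayed rectifier gene, was above background on the control array only, at 3.89 (sevoflurane) and 11.2 (control), too dim for a bound. Of 15 neuronal markers listed, 12 were measured. Among these 12, 7 were lower (background 11.5%) and 0 higher (background 27.9%), with a median of -1.17. Their summed level, in units of the upper quartile, was 62.3 (sevoflurane) and 129.8 (control). Slc17a6 (-3.11), Gad1 (-2.99), Gap43 (-1.88) and Elavl3 (-1.54) were among them, and Syt1 was above background on the control array only. Their part in the channel differences was not tested.

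The auxiliary subunit of the Kv4 channels, KChIP2, is encoded by Kcnip2 and was read by 3 probes for 3 transcript accessions. Their signals were 220.1, 221 and 227 on the sevoflurane array, against 854, 875 and 853 on the control array. The 3 differences were -1.03, -1.05 and -0.98, so the probes lay close together and near the 2-fold limit, and all were inside it after the intensity-dependent correction. Kcnip4 had 48.8 (sevoflurane) and 33.6 (control), or 1.47, and Kcnip3, which also acts as a transcriptional repressor, was above background on the sevoflurane array only, at 27.6 in sevoflurane against 7.96 in control. Kcnip4 was at 0.26 in the least favourable scaling.

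Kcnc2, a relative of Kcnc1, was read by 2 probes, for 2 transcript accessions, which lay on opposite sides of 0. The first had 17.4 ± 2.77 (sevoflurane) and 54.1 ± 5.74 (control), a difference of -0.70. It ranged from -2.60 to 0.40 and was at least 2-fold lower under 4 of the 6 scalings. The second had 18.06 ± 3.05 (sevoflurane) and 6.57 ± 1.98 (control), where it was not well above background, a bound of at least 4.77-fold higher. Both signs depended on the scaling.

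The Shaker-type (Kv1) genes were mixed. Kcna5, a channel known from heart and smooth muscle, had 412 ± 41.3 (sevoflurane) and 175 ± 17.6 (control), and was higher by 2.17 and by at least 1.08 in each scaling. Kcna3, known from lymphocytes and microglia, had 45.2 (sevoflurane) and 32.7 (control), a difference of 1.40, and 0.14 in the least favourable scaling. Kcna4, an A-type channel, had 24.1 (sevoflurane) and 93.1 (control), or -1.02, but 0.09 under normexp. Kcna1, a channel of axons, had 134 (sevoflurane) and 269 (control), a difference of -0.07, but -1.16 by median scaling. Kcna6 had 16.9 (sevoflurane) and 56.3 (control), or -0.80. Kcna6 ranged from -2.73 to 0.42 and was at least 2-fold lower under 4 of the 6 scalings. Kcna2 (16.7 in sevoflurane against 2.52 in control) and the muscle gene Kcna7 (21.9 in sevoflurane against 1.92 in control) were above background on the sevoflurane array only. The beta subunits of Kv1 channels were also mixed, with Kcnab1 at -0.86, Kcnab2 at 2.23 and Kcnab3 at 1.89. Kcnab1 had 58.3 (sevoflurane) and 202 (control), Kcnab2 had 29.4 (sevoflurane) and 11.98 (control), and Kcnab3 had 35.1 (sevoflurane) and 18.1 (control). Kcnab1 ranged from -1.95 to -0.31 and was at least 2-fold lower under 4 of the 6 scalings, while Kcnab2 and Kcnab3 were as low as 0.34 and 0.29.

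Silent Kv subunits form no channel alone and alter Kv2 channels they join. Kcng1 had 71.0 ± 7.52 (sevoflurane) and 441 ± 44.2 (control), lower by 3.26-fold (-1.70). Kcnv1, a silent subunit of the brain, was higher by 2.55, at 197 ± 19.8 (sevoflurane) and 64.1 ± 6.66 (control), and by at least 1.46 in each scaling. Kcns3 had 45.3 (sevoflurane) and 34.7 (control), or 1.32, and 0.08 in the least favourable scaling. Kcng2 had 29.4 (sevoflurane) and 26.3 (control), or 1.09, and the sign of Kcng2 turned under 3 of the 6 scalings. Kcng3 was read by a pair of probes that gave 20.1 and 18.04 on the sevoflurane array, against 5.60 and 3.68 on the control array, where neither was well above background. Of the same kind were Kcns1, with 32.0 (sevoflurane) and 8.85 (control), Kcng4, with 15.9 (sevoflurane) and 1.71 (control), and Kcnv2, with 14.9 (sevoflurane) and 1.99 (control). Kcns2 was above background on neither array.

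In the EAG family, Kcnh2, the ERG channel that also repolarises the heart, had 250.2 ± 25.1 (sevoflurane) and 2425 ± 242.5 (control). It was lower by 5.08-fold (-2.35), and it moved little with the scaling apart from median scaling, where it was at -3.43. Under upper quartile scaling the other measured members, apart from Kcnh7, were within 2-fold: Kcnh1, the founding EAG channel, with 50.1 (sevoflurane) and 187 (control), was at -0.97, Kcnh4 at -0.70, Kcnh5 at -0.51, Kcnh3 at 0.62 and Kcnh6 at 0.71. Kcnh1 (lowest value -2.06), Kcnh4 (-1.79) and Kcnh5 (-2.32) were each at least 2-fold lower under 4 of the 6 scalings, and Kcnh6, positive under 2, was as low as -1.13. Kcnh7, an ERG relative, was at 1.72 with signals of 20.9 (sevoflurane) and 12.03 (control), and its sign turned under 2 of the 6 scalings. Kcnh8 was above background on the control array only, at 4.62 (sevoflurane) and 28.0 (control). It was at least 2.13-fold lower under upper quartile scaling, but its difference was 0.46 under normexp. On the array, 199 genes were above background on the control array only, and 29.6% of them had a bound of at least 2-fold. Of 7 measured EAG family genes, 1 was higher (background 27.9%) and 1 lower (background 11.5%). After the intensity-dependent correction 0 were higher (background 15.0%) and 4 lower (background 15.5%), and by quantile normalization 0 were higher (background 13.6%) and 5 lower (background 19.6%).

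Only 1 gene of the M-current (Kv7) family was measured. Kcnq3, a subunit of the M-channel that restrains repeated firing, had 36.9 ± 4.32 (sevoflurane) and 202 ± 20.2 (control), lower by 2.86-fold (-1.52, and between -2.60 and -0.62 under the scalings). Kcnq1, a channel of heart and epithelia, was at 18.05 (sevoflurane) and 5.48 (control), above background on the sevoflurane array only. Of the single-span Kcne subunits, Kcne2, a gene of choroid plexus and stomach, was within 2-fold at 145 (sevoflurane) and 353 (control). Its difference was -0.35, but -1.43 by median scaling. Kcne4 was above background on the sevoflurane array only, at 16.9 in sevoflurane against 1.78 in control, and Kcne1, Kcne3 and Kcne5 on neither.

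The 15 genes above background on the sevoflurane array only, other than Kcnj9, Kcnj2 and Kcnj8, had signals between 12.9 and 32.0 there, against 1.71 to 8.85 in the control sample. All probes of the sevoflurane array had a lower quartile of 16.4, inside that range. The 9 genes above background on neither array were at most 10.8 (sevoflurane) and 8.40 (control).

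**Figure D4:**
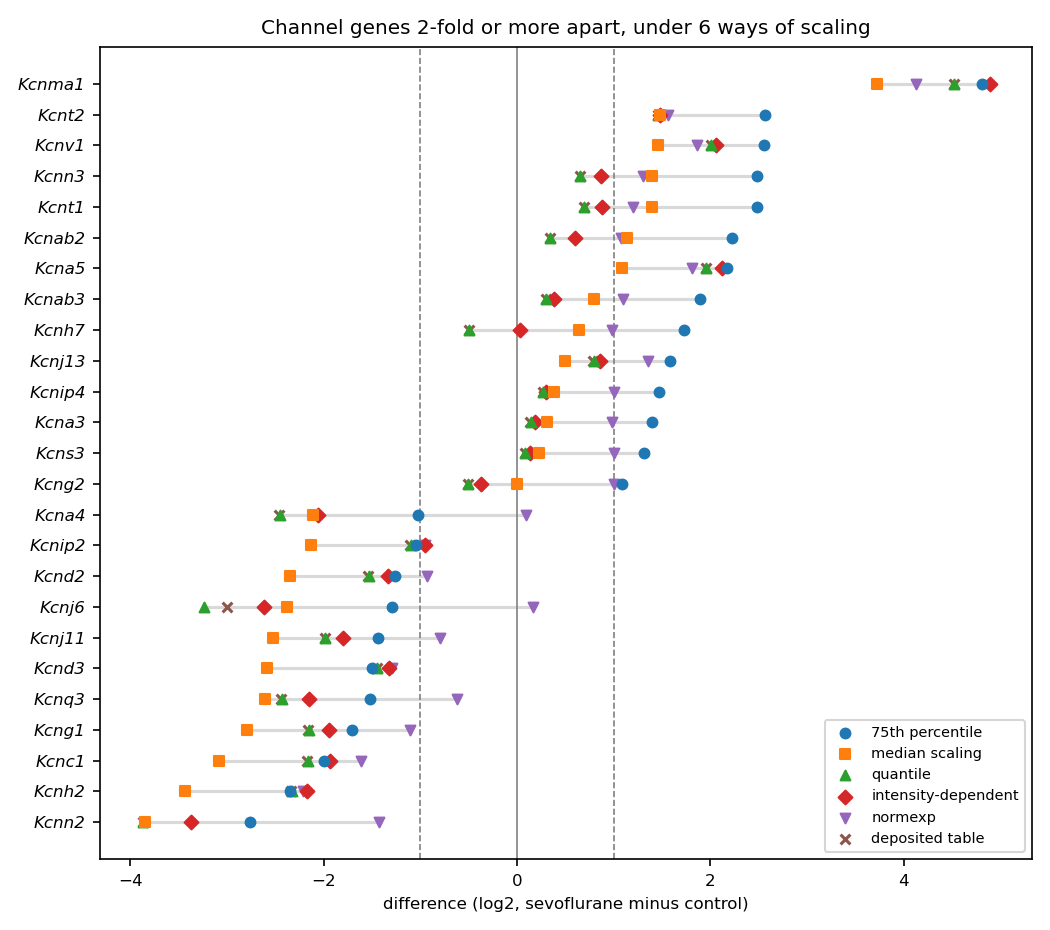
Differences (log2, sevoflurane minus control) of channel genes that were at least 2-fold apart, under 6 ways of scaling or background correction. Kcnma1 at the top and Kcnn2, Kcnh2 and Kcnc1 at the bottom stay outside the dashed 2-fold lines throughout, whereas Kcnh7, Kcng2, Kcna4 and Kcnj6 cross 0.

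Partners of the channels without a Kcn symbol were taken from a list of 39 genes, of which 25 were measured. Of these 25, 8 were higher and 3 lower, close to the 27.9% and 11.5% of all measured genes, the median being 0.08. After the intensity-dependent correction 3 were higher (background 15.0%) and 6 lower (background 15.5%). Rgs7, which speeds the closing of GIRK channels, had 87.7 (sevoflurane) and 1072 (control), a difference of -2.68. Cntn2, an axonal adhesion protein that helps cluster Kv1 channels, had 83.6 (sevoflurane) and 787 (control), or -2.30. Lrrc26, a gamma subunit that eases BK opening, was higher by 2.25, at 152 (sevoflurane) and 60.8 (control). Amigo1, an auxiliary protein of the Kv2 channel, was higher by 2.22, at 50.2 (sevoflurane) and 20.5 (control), but inside 2-fold after the intensity-dependent correction (0.86), by quantile normalization (0.88) and in the deposited values (0.87). Dpp6, an auxiliary protein of Kv4 channels, was above background on the control array only, at 4.03 (sevoflurane) and 40.4 (control). Under upper quartile scaling it was at least 3.08-fold lower. Dpp10, the other Kv4 auxiliary protein of the list, went the other way, at 136 (sevoflurane) and 76.1 (control). Its difference was 1.77, and 0.68 by median scaling. Abcc9, the sulphonylurea receptor that joins the Kcnj8 product, was above background on the sevoflurane array only, at 19.1 in sevoflurane against 4.45 in control. Dpp6, Dpp10 and Abcc9 were named after their values were seen.

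Several members are neighbours in the genome, in the order of the GRCr8 gene table. Kcnj9 lies beside Kcnj10 on chromosome 13, with Igsf8 on its other side. Igsf8 was at -0.93, while Kcnj10 was dim as given above. Kcnj2 lies beside Kcnj16 on chromosome 10, which was also dim. Kcnj8 and Abcc9 are also neighbours, on chromosome 4. Kcna5, Kcna1 and Kcna6 follow one another on chromosome 4 and had differences of 2.17, -0.07 and -0.80.

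Promoter sequences were taken from RefSeq (build GRCr8) as the 250 bases before each gene's start, and 51 of the 71 members matched an entry. Shown are those of the genes that were furthest higher and of a pair of lower Kv genes, so that their composition can be compared. Capitals mark matches on either strand, which may overlap, to any motif searched. The GC box was GGGCGG and the CCAAT box was CCAAT. The TATA box was TATAAA and the cyclic AMP element was TGACGTCA. The AP-1 site was TGANTCA, the antioxidant element was TGACNNNGC and the hypoxia element was ACGTG. The RE1 element of the repressor REST was searched by its left part, TTCAGCACC, and by its right part, GGACAGC.
Kcnma1, chr15:351675-351924, plus strand: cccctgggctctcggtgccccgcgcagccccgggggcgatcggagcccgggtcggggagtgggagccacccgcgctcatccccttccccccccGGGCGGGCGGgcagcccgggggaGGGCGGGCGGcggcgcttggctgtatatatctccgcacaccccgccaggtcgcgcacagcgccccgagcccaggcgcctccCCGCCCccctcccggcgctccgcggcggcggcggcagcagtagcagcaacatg
Kcnj9, chr13:87320294-87320543, minus strand: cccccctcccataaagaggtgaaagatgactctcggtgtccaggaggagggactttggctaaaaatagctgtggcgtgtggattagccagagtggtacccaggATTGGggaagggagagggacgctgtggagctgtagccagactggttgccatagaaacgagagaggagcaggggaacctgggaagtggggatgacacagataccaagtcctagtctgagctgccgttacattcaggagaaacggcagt
Kcnj2, chr10:96559975-96560224, plus strand: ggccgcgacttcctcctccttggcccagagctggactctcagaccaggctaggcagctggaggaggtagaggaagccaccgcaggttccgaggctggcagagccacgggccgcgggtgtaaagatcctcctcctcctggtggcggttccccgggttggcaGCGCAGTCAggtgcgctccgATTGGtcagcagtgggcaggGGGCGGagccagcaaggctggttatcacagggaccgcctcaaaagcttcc
Kcnj8, chr4:177246549-177246798, minus strand: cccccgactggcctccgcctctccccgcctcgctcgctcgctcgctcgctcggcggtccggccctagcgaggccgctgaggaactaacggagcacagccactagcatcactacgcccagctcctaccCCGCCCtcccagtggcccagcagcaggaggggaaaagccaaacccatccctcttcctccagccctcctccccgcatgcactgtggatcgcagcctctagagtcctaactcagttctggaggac
Kcnc1, chr1:106038997-106039246, plus strand: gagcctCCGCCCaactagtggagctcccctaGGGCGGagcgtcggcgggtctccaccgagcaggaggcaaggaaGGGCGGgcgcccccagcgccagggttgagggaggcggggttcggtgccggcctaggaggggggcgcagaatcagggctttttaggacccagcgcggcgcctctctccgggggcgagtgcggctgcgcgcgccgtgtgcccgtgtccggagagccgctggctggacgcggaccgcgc
Kcnd3, chr2:195626066-195626315, plus strand: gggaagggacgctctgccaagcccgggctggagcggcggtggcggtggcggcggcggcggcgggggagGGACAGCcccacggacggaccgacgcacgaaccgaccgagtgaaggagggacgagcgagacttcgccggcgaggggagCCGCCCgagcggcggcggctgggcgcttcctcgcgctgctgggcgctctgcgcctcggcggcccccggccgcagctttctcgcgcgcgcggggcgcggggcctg

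The windows of Kcnma1 (79.6% G and C) and Kcnd3 (79.6%) were the richest in G and C of those shown and that of Kcnj9 the poorest (54.8%). Kcnma1 held 5 GC boxes, some of which overlap, Kcnc1 held 3, and Kcnj2, Kcnj8 and Kcnd3 held 1 each. Kcnj9 held no GC box but 1 CCAAT motif. Over the 51 members the median content was 64.0%, against 52.0% over 27456 promoters. A GC box was present in 52.9% of the members' windows against 32.4% of all, in 7 of 12 windows of higher genes and in 4 of 7 windows of lower genes, so it was held by both. The antioxidant motif was in 7 of 51 windows (13.7%, against 10.2% of all), the right part of RE1 in 7 of 51 (13.7%, against 5.34%), and the AP-1 motif in 2 of 51 (3.92%, against 6.36%). The CCAAT box was in 12 windows (23.5%, against 34.3%), the hypoxia element in 6 (11.8%, against 16.9%), the TATA box in 2 (3.92%, against 13.1%), the left part of RE1 in 1 (1.96%, against 0.317%) and the cyclic AMP element in 0 (against 1.7% of all). Of the genes shown, Kcnj2 held the antioxidant motif and Kcnd3 the right part of RE1. These are matches of letters in a short window, and nothing about binding follows from them.

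Markers of other cell types also differed between the arrays. Among all measured genes 27.9% were higher and 11.5% lower under upper quartile scaling. After the intensity-dependent correction these shares were 15.0% and 15.5%, and by median scaling 10.4% and 43.7%. Of 10 microglial markers 8 were measured, with 5 lower, 0 higher, a median of -2.77 and a summed level of 3.36 (sevoflurane) and 17.0 (control) in units of the upper quartile. Cx3cr1 and Itgam of that list were above background on neither array, while P2ry12 was so on both, at 29.4 (sevoflurane) and 45.25 (control). The 6 measured pericyte and mesenchymal markers had a summed level of 66.5 (sevoflurane) and 51.6 (control), and 1 was higher and 1 lower by median scaling. The 5 measured red cell markers were all higher, with a median of 3.38 and a summed level of 137 (sevoflurane) and 25.3 (control). The 3 measured endothelial markers were higher, with a median of 2.59 and a summed level of 0.43 (sevoflurane) and 0.11 (control), and 1 of them was higher after the intensity-dependent correction. Of 8 measured astrocyte markers 3 were higher and 1 lower, but 1 was higher and 3 lower by the intensity-dependent correction, by quantile normalization and in the deposited values. The part of these cell types in the channel differences was not tested.

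**Figure D5:**
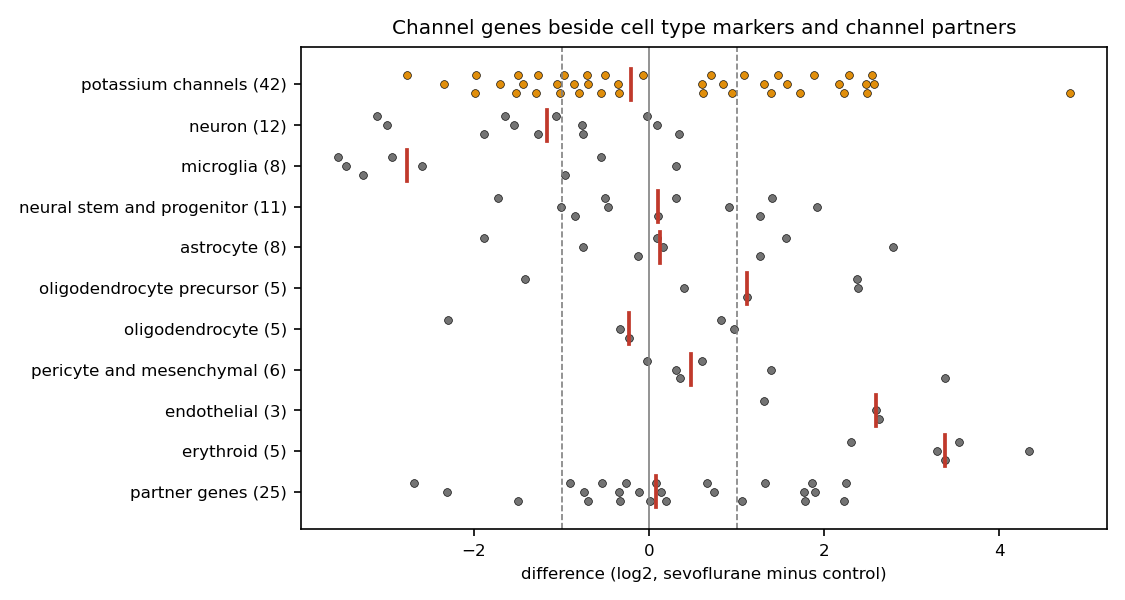
Differences (log2, sevoflurane minus control) of the 42 measured channel genes, of the measured markers of 9 cell types and of 25 measured channel partners, 1 point per gene, with the median of each list as a red bar and the number measured in brackets. The neuronal and microglial medians lie at -1.17 and -2.77, the red cell median at 3.38, and the channel genes spread from -2.76 to 4.81.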

How the data were processed

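Total RNA of 1 sevoflurane and 1 control sample was labelled with Cy3 by random priming and hybridised to 1-colour Agilent arrays, per the labels' protocols. Each array came as a table of spot intensity from the software Agilent Feature Extraction, whose version per the file headers was 11.0.1.1, with background removed and arrays left unscaled. A value table was also deposited. It was read as log2 intensity because the authors' columns correlated at 0.991 (sevoflurane) and 0.993 (control) with log2 of the scanner signals. Both columns have a median near 5.6 (5.61 and 5.60) and nearly equal upper quartiles (8.97 for sevoflurane, 8.96 for control). How the authors scaled them was not established. Their differences lay close to those by quantile normalization, as for Kcnma1 (4.52 in both) and Kcnh2 (-2.34 deposited, -2.33 by quantile normalization). The deposited table and quantile normalization are thus not separate checks.

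Control spots and outlier spots (521 for sevoflurane, 580 for control) were left out, and no spot was saturated. Log2 signals were averaged over spots of a probe, and each array's 75th percentile was subtracted. RefSeq accessions without versions named 14274 of 15323 messenger RNA probes. Where a gene had several measured probes, the one of highest mean signal stood for it. Every member probe had 1 spot, so no spread between spots exists for it.

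Alternatives were median scaling, quantile normalization (limma 3.58.1), a lowess correction (statsmodels 0.14.6, fraction 0.3), normexp with offset 50, the deposited table, no filter on dim probes, and the mean over probes. The scanner tables used here list no mean signal, so normexp used the median signal in its place. The procedure was tested on simulated data. Genes with full values were taken by a rule of up to 5 genes per family at least 2-fold apart with a constant sign, up to 3 genes per family by their bound, genes with opposite probes, the brightest of each family and a fixed set. The members and lists were chosen with earlier results of these data known. Some genes are not reported here by name.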

Additional observations from a re-analysis of the deposited data

How the results depend on the processing

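No paired analysis was possible because each group has 1 array, and for the same reason no replicate could be left out. Of the channel genes at least 2-fold apart, 13 of 15 higher and 10 of 12 lower ones kept their sign under all 6 scalings. The exceptions were Kcna4 (0.094 under normexp), Kcnj6 (0.17 under normexp), Kcng2 (-0.50 by quantile normalization, -0.51 in the deposited table and -0.37 by the lowess fit) and Kcnh7 (-0.50 by quantile normalization and in the deposited values). The cause was not tested. No share of all called genes that kept their sign is given here, so these counts have no background. The scalings are also not independent. Median scaling shifts every gene by the same amount, and quantile normalization and the deposited table gave near-equal values for most measured members. The median over measured channel genes, with the counts higher and lower, was -1.30 (median scaling, 8 and 22), -0.79 (quantile normalization, 5 and 20), -0.79 (deposited values, 5 and 20), -0.64 (intensity-dependent correction, 5 and 17) and 0.42 (normexp, 13 and 6). Without a filter on dim probes, which adds genes not above background, 40 were higher (45.9% of all genes) and 13 lower (8.9% of all genes), the median being 1.40, against 0.77 over all genes. Over all measured genes the median was 0.25 under the scaling used, -0.84 by median scaling, -0.10 by quantile normalization and 0.31 by normexp, so counts are to be read against that shift. Of 25 measured channel partners, median scaling gave 2 higher (background 10.4%) and 13 lower (background 43.7%). Quantile normalization, the lowess fit and the deposited values each gave 3 higher and 6 lower. Their backgrounds were 13.6% higher and 19.6% lower (quantile normalization), 15.0% and 15.5% (lowess fit), and 13.6% and 19.2% (deposited values). The mean over probes gave 15 higher and 12 lower channel genes. Signals near background limit the dim members, whose order is not resolved.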
